A study of Bos taurus with 6 samples.

Results

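The genes described here are 40 regulators of chromatin, the complex of DNA and histones: Polycomb proteins, enzymes that write and erase histone methylation and acetylation, and several remodelling and architectural proteins. They come from a list of 40 gene symbols. All 40 matched a row of the deposited expression table and averaged at least 10 there across the 6 libraries, as did 12070 named genes in all. Each library, made from bovine late morulae on day 6 after fertilization in vitro, held the polyadenylated RNA of a pool of 15 embryos. Embryos of the NOTCH1 knockdown (2 libraries) received a small interfering RNA that targets NOTCH1, the gene of a receptor of the NOTCH signalling pathway. In the RBPJ knockdown (2 libraries) it targeted RBPJ, whose protein binds DNA and carries the signal of activated NOTCH receptors to their target genes. The control (2 libraries) had received a nonspecific small interfering RNA, so that all 3 groups were injected. The labels do not say if the 2 pools of a group were collected separately, so p-values reflect the spread among these 6 libraries alone, and that spread may be technical.

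Polycomb proteins hold genes silent in development. Polycomb repressive complex 2 (PRC2) methylates a lysine of histone H3 (H3K27), and Polycomb repressive complex 1 (PRC1) places ubiquitin on histone H2A. Other enzymes methylate H3K9 in silent chromatin, or H3K4, H3K36 and H3K79 in active genes, while demethylases, acetyltransferases and deacetylases add to or reverse these marks. In early mammalian embryos such enzymes reset the chromatin inherited from egg and sperm. RBPJ works with some of them in mammalian cells: with activated NOTCH it recruits acetyltransferases such as EP300, and without NOTCH it is found with corepressors that hold histone deacetylases.

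The deposited values are abundances per gene on the scale of read counts, scaled by the authors, and are called scaled counts below. Their totals ran from 10365695 to 10815554 per library. They are not divided by transcript length, so a level can be compared between libraries for 1 gene but not between genes. RBPJ had 361 and 399.6 in the NOTCH1 knockdown and 121 and 94.5 in the RBPJ knockdown, against 447 and 391 in the control (log2 fold change in the RBPJ knockdown -1.96, standard error 0.18, limma adjusted p = 0.00143). NOTCH1 had 48.0 and 49.5 in the NOTCH1 knockdown and 50.0 and 125 in the RBPJ knockdown, against 69.6 and 139.8 in the control (log2 fold change in the NOTCH1 knockdown -1.003, standard error 0.42, limma adjusted p = 0.634). The RBPJ libraries of its own knockdown were clear of all others, while NOTCH1 was nearly as low in one RBPJ knockdown library as in its own knockdown. Of 9 markers of the morula and its first lineages, 8 were tested and 0 passed in any comparison. In all 4 knockdown libraries 1 (GATA6) was above both controls (7.98% of all genes tested) and 0 were below (7.93%). They summed to 65294 and 57568 in the NOTCH1 knockdown and 60379 and 48866 in the RBPJ knockdown, against 50927 and 50680.0 in the control. POU5F1, a pluripotency factor, had between 10911 and 12942 in each library. GATA6, a factor of the primitive endoderm, had 10556 and 10410.0 in the NOTCH1 knockdown and 10425 and 10360.0 in the RBPJ knockdown, against 7103 and 9492 in the control (log2 fold change 0.35 in the NOTCH1 knockdown, limma adjusted p = 0.557, and 0.34 in the RBPJ knockdown, limma adjusted p = 0.983). GATA3, a factor of the trophectoderm, had 1018 and 856 in the NOTCH1 knockdown and 737 and 391 in the RBPJ knockdown, against 577 and 515 in the control (log2 fold change 0.78 in the NOTCH1 knockdown, limma adjusted p = 0.466). CDX2, another trophectoderm factor, had 976 and 832 in the NOTCH1 knockdown and 682 and 624 in the RBPJ knockdown, against 654 and 744 in the control (log2 fold change 0.37 in the NOTCH1 knockdown, limma adjusted p = 0.566). Oocyte transcripts summed to 213 and 463 in the NOTCH1 knockdown and 289 and 496 in the RBPJ knockdown, against 532 and 797 in the control. Of the 11 tested, 5 had all 4 knockdown libraries below both controls, against 7.93% of all genes tested, and 0 passed the test. The part of these lineage and oocyte transcripts in the results below was not tested. In pools of whole embryos, fewer cells that express a gene and less of its RNA per cell cannot be told apart.

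None of the 40 chromatin regulators passed the test in NOTCH1 knockdown against control, RBPJ knockdown against control, both knockdowns together against control, or NOTCH1 knockdown against RBPJ knockdown (limma, Benjamini-Hochberg adjusted p under 0.05 over 12070 genes, without a replicate block). Over all genes tested, the percentage passing was 0.0% in either direction for the NOTCH1 knockdown and for both knockdowns together. It was 0.0% higher and 0.00829% lower for the RBPJ knockdown, and 0.00829% higher and 0.0% lower for NOTCH1 against RBPJ knockdown. At an unadjusted p under 0.05 there were 2 members in the NOTCH1 knockdown (7.29% of all genes tested), 2 in the RBPJ knockdown (4.34%), 4 in both together (6.51%) and 0 between the knockdowns (3.64%). Those counts among 40 are near the backgrounds. With the replicate number as a block, 1 member, KDM2B, was called in the NOTCH1 knockdown (1.14% of all genes tested in that fit) and again in both together (0.489%), while 0 were called in the RBPJ knockdown (0.0994%) and 0 between the knockdowns (0.124%).

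The differences were small as well. The median log2 fold change of the members was 0.014 in the NOTCH1 knockdown and 0.030 in the RBPJ knockdown. It was above 0 for 23 of the 40 in the NOTCH1 knockdown (51.1% of all genes tested), for 22 in the RBPJ knockdown (49.7%), for 24 in both together (49.9%) and for 18 between the knockdowns (52.7%). Over all genes tested the medians against control were 0.0059 and -0.0018. The median size of the change regardless of sign was 0.074 in the NOTCH1 knockdown, against 0.15 for all genes tested and 0.12 for those averaging at least 100. In the RBPJ knockdown it was 0.11, against 0.13 and 0.11 in the same order. The 95% interval of the difference lay within 1.5-fold in either direction for 34 members in the NOTCH1 knockdown and 36 in the RBPJ knockdown. Among all genes tested that share was 51.0% and 53.1%, and in genes averaging at least 100, to which 39 of the 40 members belong, 72.4% and 75.4%. For both knockdowns together it held for 37 members, against 60.1% of all genes tested and 83.5% of those averaging at least 100. Yet 28 of the 40 members averaged at least 1000, and no background at that level was computed. In the NOTCH1 knockdown the median standard error was 0.115 for the members and 0.153 for genes averaging at least 100. The comparison with these shares thus does not separate the members' role from their level. The sign of many of these small differences rested on single libraries: it turned on leaving out 1 library for 21 of the 40 members in the NOTCH1 knockdown, 21 in the RBPJ knockdown, 17 in both together and 29 between the knockdowns. The members whose interval reached beyond 1.5-fold in the NOTCH1 knockdown were KDM2B, KDM4B, EZH1, KMT2A, SUV39H1 and SUV39H2. In the RBPJ knockdown they were EZH1, KMT2A, SUV39H1 and SUV39H2. The interval of KDM2B was not wide for a member (standard error 0.103) and passed the bound because its difference was larger.

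**Figure D1:**
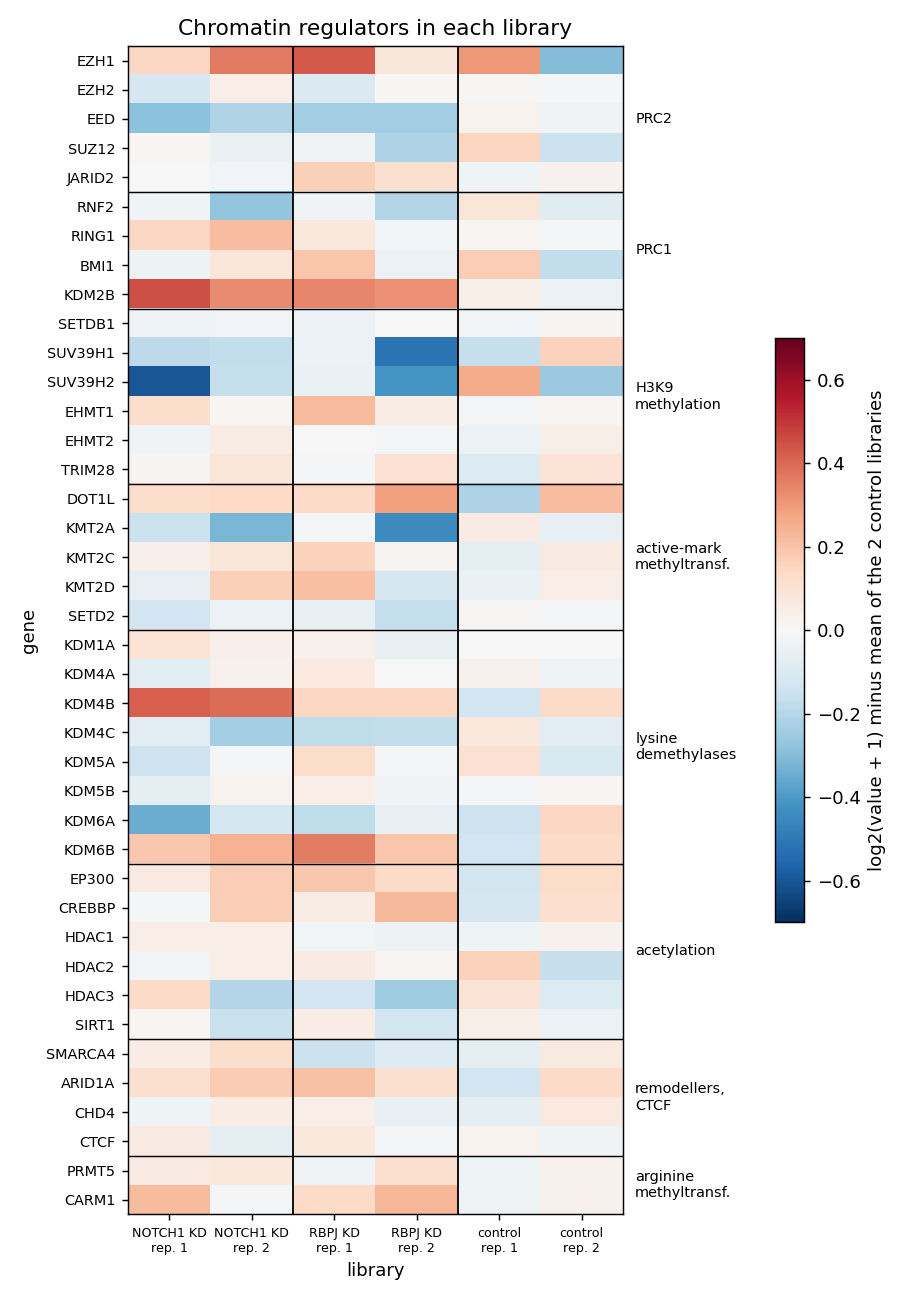
Each row is a chromatin regulator, grouped by role, and each column a library; colour gives log2(scaled count + 1) minus the mean of the 2 control libraries. Most cells are pale, KDM2B is higher in all 4 knockdown libraries (2133 to 2330, against 1753 and 1661 in the control) and EED lower in all 4 (462 to 488, against 574 and 554 in the control).

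**Figure D2:**
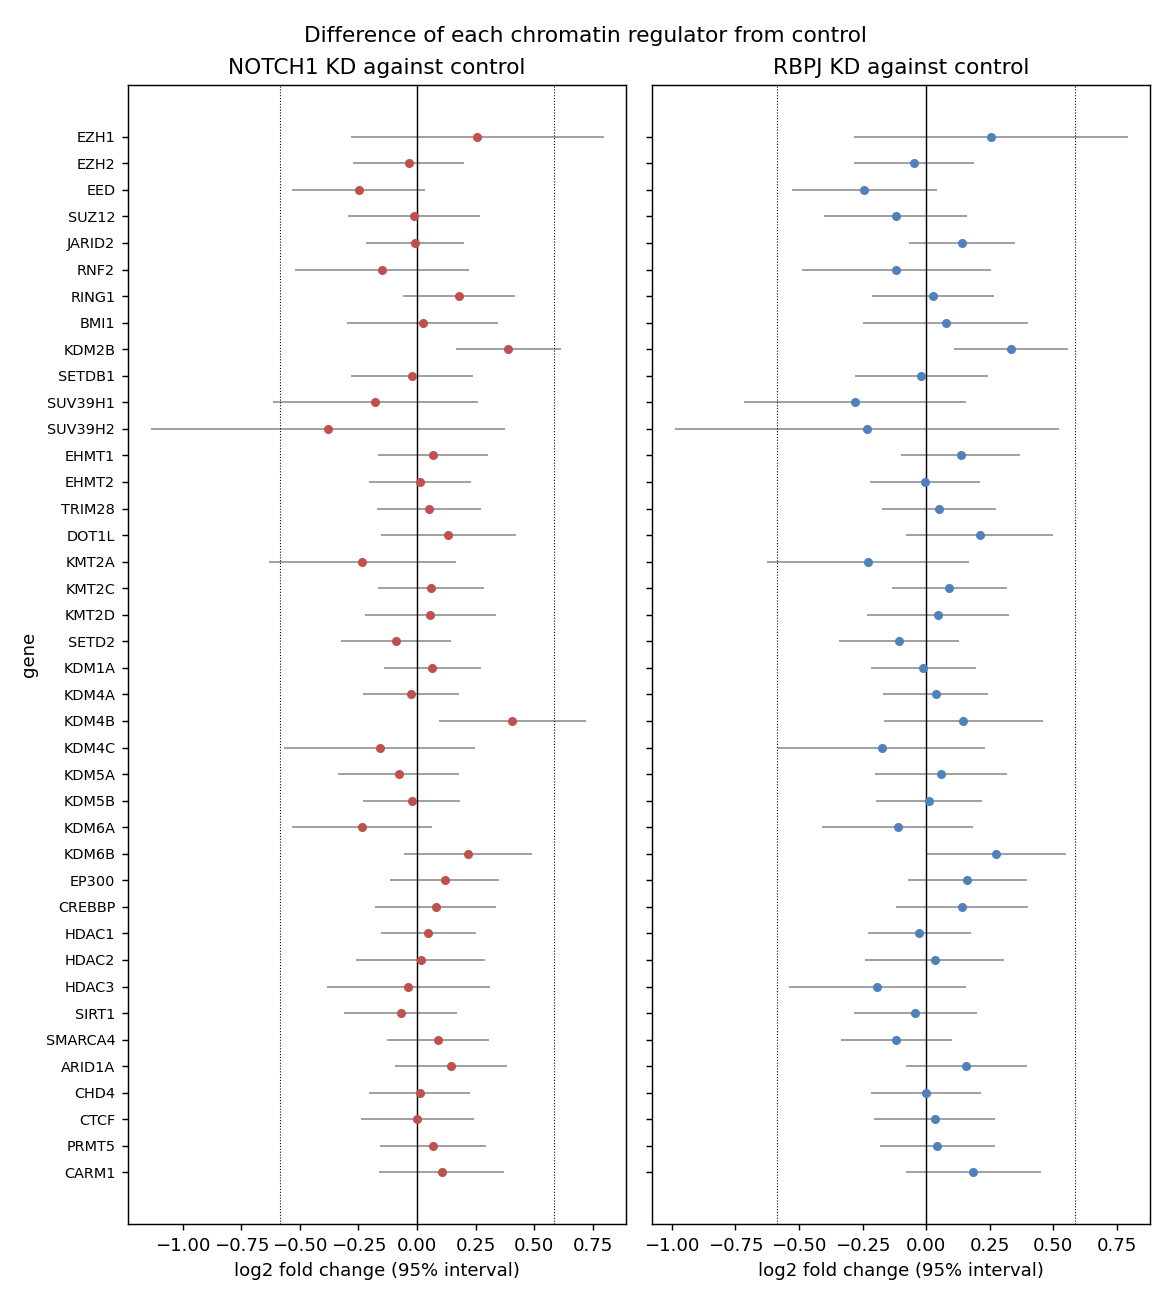
Points are log2 fold changes of the 40 chromatin regulators and lines their 95% intervals, for the NOTCH1 knockdown and the RBPJ knockdown against control; dotted lines mark a 1.5-fold change in either direction. Of the 40 intervals, 34 lie within the dotted lines for the NOTCH1 knockdown and 36 for the RBPJ knockdown.

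In PRC1, KDM2B had the smallest p of all members in each comparison against control. KDM2B binds unmethylated CpG islands and brings a variant form of PRC1 to them, and it also demethylates histone H3. It had 2330.1 and 2144 in the NOTCH1 knockdown and 2165 and 2133 in the RBPJ knockdown, against 1753 and 1661 in the control. All 4 knockdown libraries lay above both control libraries. The log2 fold change was 0.39 (standard error 0.10, 95% interval 0.16 to 0.61, limma adjusted p = 0.438) in the NOTCH1 knockdown and 0.33 (standard error 0.10, 95% interval 0.11 to 0.56, limma adjusted p = 0.983) in the RBPJ knockdown. These comparisons share the control libraries. For both knockdowns together it was 0.36 (standard error 0.089, 95% interval 0.17 to 0.56, limma adjusted p = 0.639). With the replicate number as a block the adjusted p was 0.0388 in the NOTCH1 knockdown, 0.244 in the RBPJ knockdown and 0.0449 for both together (limma), so that KDM2B passed in that fit in the NOTCH1 knockdown and in both together. Leaving out each library in turn gave 0.33 to 0.45 in the NOTCH1 knockdown and 0.29 to 0.37 in the RBPJ knockdown. Between the knockdowns the difference was 0.057 (95% interval -0.17 to 0.28).

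The other PRC1 members had smaller differences by value. RING1, one of the paired ubiquitin ligases of the complex, had 1202 and 1265 in the NOTCH1 knockdown and 1145 and 1076 in the RBPJ knockdown, against 1098 and 1080.4 in the control. Its NOTCH1 knockdown libraries lay above both controls, and its RBPJ knockdown libraries overlapped with them. For RING1 the log2 fold change was 0.18 (standard error 0.11, 95% interval -0.061 to 0.42, limma adjusted p = 0.772) in the NOTCH1 knockdown. RNF2, the other ligase, had 285 and 240.2 in the NOTCH1 knockdown and 285 and 252 in the RBPJ knockdown, against 308 and 274 in the control, with overlap in both comparisons. BMI1, a ring finger subunit that stabilizes the ligase, had 644 and 700.3 in the NOTCH1 knockdown and 757 and 641 in the RBPJ knockdown, against 744 and 587 in the control, so that the control libraries spanned most of its range.

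Of the PRC2 members, EED had all 4 knockdown libraries below both controls. EED binds methylated H3K27 and stimulates the enzyme. It had 462 and 488 in the NOTCH1 knockdown and 477 and 477 in the RBPJ knockdown, against 574 and 554 in the control. The log2 fold change was -0.25 (standard error 0.13, 95% interval -0.53 to 0.035, limma adjusted p = 0.736) in the NOTCH1 knockdown and -0.24 (standard error 0.13, 95% interval -0.53 to 0.041, limma adjusted p = 0.983) in the RBPJ knockdown. For both knockdowns together it was -0.25 (standard error 0.11, 95% interval -0.49 to -0.00022, limma adjusted p = 0.759).

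The catalytic subunits of PRC2 overlapped with the control in both knockdowns. EZH2, its main methyltransferase, had 1676 and 1880.4 in the NOTCH1 knockdown and 1695 and 1834 in the RBPJ knockdown, against 1829 and 1812 in the control. The log2 fold change of EZH2 was -0.036 (95% interval -0.27 to 0.20) in the NOTCH1 knockdown and -0.046 (95% interval -0.28 to 0.19) in the RBPJ knockdown. EZH1, the alternative methyltransferase, had 132 and 154 in the NOTCH1 knockdown and 161 and 126 in the RBPJ knockdown, against 147 and 96.4 in the control. Replicate 2 of the control was the lowest library for EZH1, and the log2 fold change of 0.26 in the NOTCH1 knockdown ran from -0.046 to 0.56 as single libraries were left out. SUZ12, the scaffold of PRC2, had 1259 and 1206 in the NOTCH1 knockdown and 1225 and 1072 in the RBPJ knockdown, against 1381 and 1122 in the control, and also overlapped in both. JARID2, which helps to bring PRC2 to its targets, had 3102 and 3063 in the NOTCH1 knockdown and 3477 and 3355 in the RBPJ knockdown, against 3043 and 3161 in the control. Its RBPJ knockdown libraries lay above both controls, by 0.14 (standard error 0.096, 95% interval -0.069 to 0.35, limma adjusted p = 0.983) on the log2 scale.

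Members whose libraries did not overlap with the control were about as frequent as other genes. In the NOTCH1 knockdown 7 members had both libraries above both controls (18.6% of all genes tested) and 6 had both below (17.2%). In the RBPJ knockdown 7 had both above (15.3%) and 5 both below (16.8%). With both knockdowns together, KDM2B, KDM4B and KDM6B (3 members) had all 4 libraries above both controls (7.98%), and EED, SETD2 and KDM4C (3 members) had all 4 below (7.93%).

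**Figure D3:**
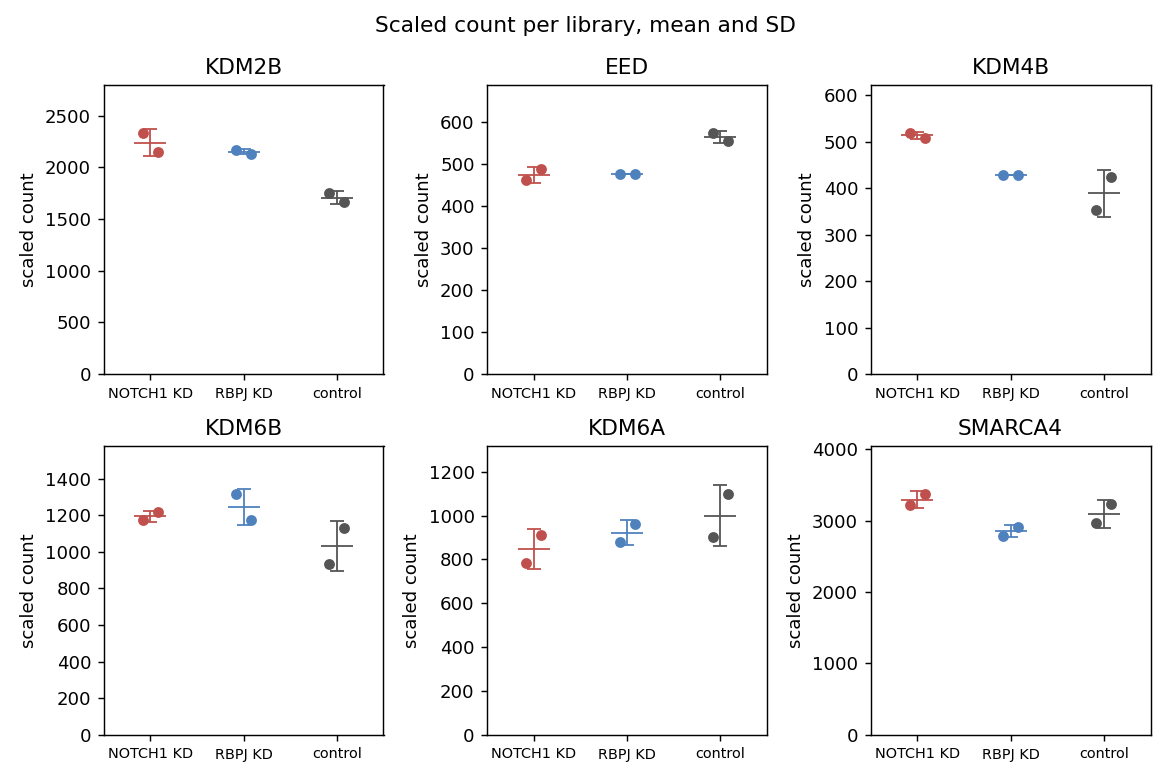
Points are the scaled counts of KDM2B, EED, KDM4B, KDM6B, KDM6A and SMARCA4 in each library of the NOTCH1 knockdown, RBPJ knockdown and control; horizontal marks are means and bars SD (n = 2 each). KDM2B, KDM4B and KDM6B lie above both control libraries in all 4 knockdown libraries and EED below them, while KDM6A overlaps with the control.

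Among the lysine demethylases, KDM4B and KDM6B had unadjusted p under 0.05 in at least 1 comparison. KDM4B, which removes methyl groups from H3K9, had 519 and 509 in the NOTCH1 knockdown and 429 and 429.6 in the RBPJ knockdown, against 354 and 425 in the control. The NOTCH1 knockdown libraries were clear of both controls, while those of the RBPJ knockdown were just above the higher one. The log2 fold change was 0.41 (standard error 0.14, 95% interval 0.092 to 0.72, limma adjusted p = 0.558) in the NOTCH1 knockdown and 0.15 (standard error 0.14, 95% interval -0.17 to 0.46, limma adjusted p = 0.989) in the RBPJ knockdown, and 0.28 (standard error 0.12, 95% interval 0.0046 to 0.55, limma adjusted p = 0.759) for both together. Replicate 1 of the control was the lowest library for KDM4B, and leaving out single libraries gave 0.015 to 0.28 in the RBPJ knockdown and 0.14 to 0.41 for both together, where the lowest value came without that library. KDM6B, which removes methyl groups from H3K27 and so opposes PRC2, had 1174 and 1216 in the NOTCH1 knockdown and 1317 and 1175 in the RBPJ knockdown, against 935 and 1130.5 in the control. Its log2 fold change was 0.22 (standard error 0.13, 95% interval -0.057 to 0.49, limma adjusted p = 0.761) in the NOTCH1 knockdown and 0.27 (standard error 0.13, 95% interval 0.0012 to 0.55, limma adjusted p = 0.983) in the RBPJ knockdown, and 0.25 (standard error 0.11, 95% interval 0.0086 to 0.48, limma adjusted p = 0.759) for both together. Replicate 1 of the control was the lowest library for KDM6B, and without it the values were 0.08 in the NOTCH1 knockdown and 0.14 in the RBPJ knockdown.

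KDM6A, the X-linked counterpart of KDM6B, had 782 and 913 in the NOTCH1 knockdown and 881 and 961 in the RBPJ knockdown, against 901 and 1099 in the control. Replicate 2 was the higher library in each group, and both knockdowns overlapped with the control, although each knockdown library was below the control library of the same number. For KDM6A the log2 fold change was -0.23 (standard error 0.14, 95% interval -0.53 to 0.062, limma adjusted p = 0.761) in the NOTCH1 knockdown and -0.11 (95% interval -0.41 to 0.18) in the RBPJ knockdown. With a replicate block the adjusted p in the NOTCH1 knockdown was 0.367 (limma). Leaving out single libraries gave -0.38 to -0.091 in the NOTCH1 knockdown, with -0.091 without control replicate 2, -0.38 without control replicate 1 and -0.12 without NOTCH1 knockdown replicate 1. In the RBPJ knockdown the range was -0.26 to 0.031, so that the sign turned.

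The other demethylases did not pass either. KDM4C, a relative of KDM4B, had 173 and 156 in the NOTCH1 knockdown and 162 and 163 in the RBPJ knockdown, against 193 and 175 in the control, with all 4 knockdown libraries below both controls and a log2 fold change of -0.17 (95% interval -0.52 to 0.19) for both together. KDM4A, a further relative, ranged from 7873 to 8743 over the 6 libraries, with log2 fold changes of -0.027 in the NOTCH1 knockdown and 0.037 in the RBPJ knockdown. KDM1A, which removes methyl groups from H3K4, had 4096 and 3926 in the NOTCH1 knockdown and 3913 and 3700.3 in the RBPJ knockdown, against 3830.1 and 3836 in the control. KDM5A, another H3K4 demethylase, had 1333 and 1465 in the NOTCH1 knockdown and 1614 and 1463 in the RBPJ knockdown, against 1591 and 1369.6 in the control. KDM5B, its relative, ranged from 4307 to 4658, and like KDM5A it overlapped with the control in both knockdowns.

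Among members that act on H3K9 methylation, SETDB1 had the narrowest spread of all 40. SETDB1, which silences retroelements together with TRIM28, ranged from 682 to 711 over the 6 libraries. TRIM28 had 16520.0 and 17268 in the NOTCH1 knockdown and 16220.0 and 17581 in the RBPJ knockdown, against 15229 and 17442 in the control, with its lowest library in the control. EHMT1 and EHMT2 form the dimer that dimethylates H3K9. EHMT1 had 2105 and 1951 in the NOTCH1 knockdown and 2251 and 2003 in the RBPJ knockdown, against 1912 and 1955 in the control, and its RBPJ knockdown libraries lay above both controls, by 0.14 (95% interval -0.098 to 0.37) on the log2 scale. EHMT2 stayed between 2403 and 2564.

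SUV39H1 and SUV39H2, which trimethylate H3K9 in heterochromatin, varied more. SUV39H1 had 223 and 224 in the NOTCH1 knockdown and 245 and 177 in the RBPJ knockdown, against 226 and 283 in the control. Its NOTCH1 knockdown libraries lay just below the lower control, and its log2 fold change was -0.28 (standard error 0.20, 95% interval -0.72 to 0.16, limma adjusted p = 0.983) in the RBPJ knockdown, where the libraries overlapped. Each of the 4 libraries weighed on that value, which was -0.52 and -0.044 without RBPJ knockdown replicates 1 and 2, and -0.44 and -0.12 without control replicates 1 and 2. SUV39H2, whose mean of 42.7 was the lowest of the members, had 31.7 and 43.1 in the NOTCH1 knockdown and 46.9 and 35.9 in the RBPJ knockdown, against 58.1 and 40.4 in the control. Its log2 fold change was -0.38 (standard error 0.35, 95% interval -1.14 to 0.37, limma adjusted p = 0.853) in the NOTCH1 knockdown, an interval that a change of 1.5-fold in the lower direction falls within. Leaving out single libraries gave -0.64 to -0.12, with -0.17 and -0.60 without NOTCH1 knockdown replicates 1 and 2, and -0.12 and -0.64 without control replicates 1 and 2.

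Among methyltransferases of active chromatin, KMT2A and SETD2 were lower by value. KMT2A, an H3K4 methyltransferase, had 274 and 243 in the NOTCH1 knockdown and 302 and 223 in the RBPJ knockdown, against 317 and 292 in the control. Both NOTCH1 knockdown libraries lay below both controls, and the difference was -0.23 (standard error 0.18, 95% interval -0.63 to 0.16, limma adjusted p = 0.831) on the log2 scale, or -0.15 without NOTCH1 knockdown replicate 2. The RBPJ knockdown libraries of KMT2A overlapped with the control. Its log2 fold change there, -0.23, ran from -0.45 to -0.0092 as single libraries were left out. SETD2, which trimethylates H3K36 along transcribed genes, had 1385 and 1475 in the NOTCH1 knockdown and 1468 and 1357 in the RBPJ knockdown, against 1530.1 and 1511 in the control. All 4 of its knockdown libraries were below both controls, and the log2 difference was -0.098 (95% interval -0.30 to 0.10) for both together. KMT2C and KMT2D, which monomethylate H3K4 at enhancers, overlapped with the control in both knockdowns, ranging from 2433 to 2839 for KMT2C and from 1884 to 2360.5 for KMT2D.

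DOT1L, the H3K79 methyltransferase, had 3498 and 3533 in the NOTCH1 knockdown and 3520.4 and 3909.9 in the RBPJ knockdown, against 2758 and 3729 in the control. Replicate 1 of the control was far below the other libraries. The log2 fold change of DOT1L was 0.21 (standard error 0.13, 95% interval -0.078 to 0.50, limma adjusted p = 0.983) in the RBPJ knockdown. Without replicate 1 of the control it was -0.0072 there, and the value of 0.13 in the NOTCH1 knockdown became -0.085.

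The acetyltransferases EP300 and CREBBP, coactivators that acetylate histones at enhancers, had their lowest library in the control too. EP300 had 5691 and 6142 in the NOTCH1 knockdown and 6217 and 5984 in the RBPJ knockdown, against 4994 and 5950.1 in the control. CREBBP had 2306 and 2623 in the NOTCH1 knockdown and 2418 and 2726 in the RBPJ knockdown, against 2150.1 and 2521 in the control. For EP300 the log2 fold change was 0.12 (standard error 0.11, 95% interval -0.12 to 0.35, limma adjusted p = 0.856) in the NOTCH1 knockdown and 0.16 (standard error 0.11, 95% interval -0.072 to 0.40, limma adjusted p = 0.983) in the RBPJ knockdown. For both knockdowns together it was 0.14 (standard error 0.093, 95% interval -0.063 to 0.34, limma adjusted p = 0.807). Without replicate 1 of the control the separate values were -0.0092 and 0.036.

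The deacetylases remove acetyl groups from histones. HDAC1, a subunit of several corepressor complexes, had 4969 and 4970.0 in the NOTCH1 knockdown and 4746 and 4687 in the RBPJ knockdown, against 4702 and 4919 in the control. HDAC2, its paralogue, had 1178 and 1234 in the NOTCH1 knockdown and 1241 and 1204 in the RBPJ knockdown, against 1333 and 1068 in the control, so that the control libraries held both extremes. HDAC3, the catalytic subunit of the NCOR complexes, had 468 and 369 in the NOTCH1 knockdown and 388 and 359 in the RBPJ knockdown, against 456 and 399 in the control. Both RBPJ knockdown libraries of HDAC3 were below both controls, and the log2 difference was -0.19 (95% interval -0.54 to 0.16). SIRT1, a deacetylase that depends on NAD, ranged from 2158 to 2485 and overlapped in both knockdowns.

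Among chromatin remodellers, SMARCA4, an ATPase of the BAF complex, had 3214 and 3375 in the NOTCH1 knockdown and 2792 and 2913 in the RBPJ knockdown, against 2960.1 and 3237 in the control. Its RBPJ knockdown libraries lay below both controls, and its NOTCH1 knockdown libraries overlapped with them. ARID1A, a BAF subunit that binds DNA, had 4218 and 4416 in the NOTCH1 knockdown and 4500.2 and 4226 in the RBPJ knockdown, against 3563 and 4288 in the control. On the log2 scale the fold change of ARID1A was 0.14 (standard error 0.11, 95% interval -0.096 to 0.38, limma adjusted p = 0.831) in the NOTCH1 knockdown and 0.16 (standard error 0.11, 95% interval -0.081 to 0.40, limma adjusted p = 0.983) in the RBPJ knockdown. For both together it was 0.15 (standard error 0.095, 95% interval -0.056 to 0.36, limma adjusted p = 0.801). The separate values became 0.0093 and 0.024 without replicate 1 of the control. CHD4, the ATPase of the NuRD complex, ranged from 4879 to 5350.0, and CTCF, which anchors chromatin loops, from 1249 to 1375, each with overlap in both knockdowns.

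The 2 arginine methyltransferases among the members had log2 fold changes above 0 in each knockdown against control. Of all genes tested, 51.1% were above 0 in the NOTCH1 knockdown and 49.7% in the RBPJ knockdown. Of 8 further genes of this role, 5 were above 0 and 3 below in the NOTCH1 knockdown, and 2 above and 6 below in the RBPJ knockdown. CARM1, which methylates arginines of histone H3 and favours pluripotent fate in mouse embryos, had 1102 and 938 in the NOTCH1 knockdown and 1038 and 1113 in the RBPJ knockdown, against 926 and 966 in the control. Its log2 fold change was 0.10 (standard error 0.12, 95% interval -0.16 to 0.37, limma adjusted p = 0.895) in the NOTCH1 knockdown and 0.18 (standard error 0.12, 95% interval -0.081 to 0.45, limma adjusted p = 0.983) in the RBPJ knockdown, where both libraries lay above both controls. Without replicate 1 of the NOTCH1 knockdown the value there was -0.011. PRMT5, which makes symmetric dimethylarginine, had 1928 and 1939 in the NOTCH1 knockdown and 1812 and 1996 in the RBPJ knockdown, against 1808 and 1881 in the control. Its log2 fold change of 0.044 in the RBPJ knockdown ran from -0.026 to 0.11 as single libraries were left out.

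Ratios between related enzymes within a library do not depend on how the libraries were scaled. They were computed for 11 pairs, chosen with the values known, and are given as a description. Libraries did not overlap with the control for 4 of the 11 pairs in the NOTCH1 knockdown and 4 in the RBPJ knockdown. For 3 pairs all 4 knockdown libraries lay on one side of both controls. Among single genes, 18.6% lay above and 17.2% below in the NOTCH1 knockdown, and 15.3% and 16.8% in the RBPJ knockdown. For all 4 knockdown libraries it was 7.98% and 7.93%. The share among other gene pairs was not computed, so these counts are not a result about the pairs. The log2 ratio of KDM6A to KDM6B, the demethylases of H3K27, was -0.58 and -0.41 in the NOTCH1 knockdown and -0.58 and -0.29 in the RBPJ knockdown, against -0.054 and -0.041 in the control. It lay below the control in all 4 knockdown libraries, although KDM6A by itself overlapped. For KDM4B to KDM4C the log2 ratio was 1.58 and 1.70 in the NOTCH1 knockdown and 1.40 and 1.40 in the RBPJ knockdown, against 0.87 and 1.28 in the control, above the control in all 4. That had to follow from the single genes, since KDM4B lay above both controls and KDM4C below both in all 4. For RNF2 to RING1 it was -2.07 and -2.39 in the NOTCH1 knockdown and -2.001 and -2.09 in the RBPJ knockdown, against -1.83 and -1.98 in the control, below the control in all 4. By contrast, EP300 to CREBBP overlapped, at 1.30 and 1.23 in the NOTCH1 knockdown and 1.36 and 1.13 in the RBPJ knockdown, against 1.22 and 1.24 in the control. EZH2 to EZH1 overlapped as well, at 3.66 and 3.60 in the NOTCH1 knockdown and 3.39 and 3.85 in the RBPJ knockdown, against 3.63 and 4.22 in the control. With 2 libraries against 2, an exact two-sided permutation test cannot give a p below 0.333.

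**Figure D4:**
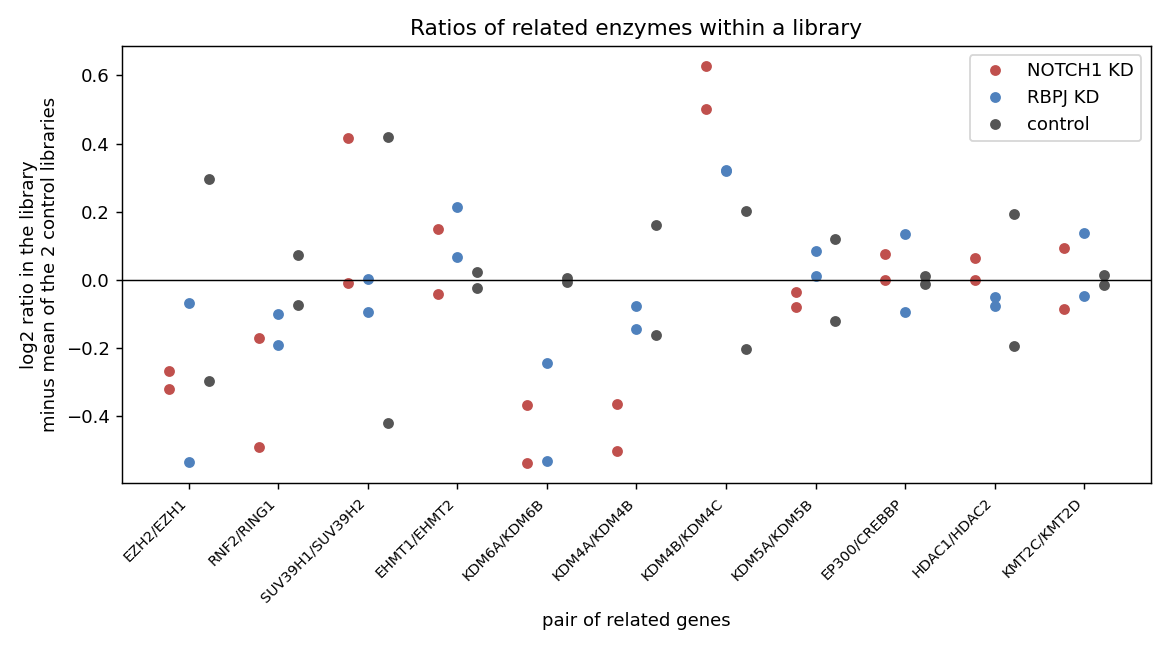
Points are log2 ratios of related enzymes within each library, minus the mean ratio of the 2 control libraries, for the NOTCH1 knockdown, RBPJ knockdown and control libraries. For KDM6A to KDM6B the log2 ratios before that subtraction were -0.58 to -0.29 in the knockdown libraries, against -0.054 and -0.041 in the control. The knockdown points of this pair lie below those of the control, while EP300 to CREBBP overlaps.

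Set against each other, the knockdowns had 0 members past the test. SMARCA4 had the smallest p, with 3214 and 3375 in the NOTCH1 knockdown, against 2792 and 2913 in the RBPJ knockdown, and a log2 fold change of 0.21 (standard error 0.10, 95% interval -0.011 to 0.43, limma adjusted p = 0.999). For KDM4B it was 0.26 (standard error 0.14, 95% interval -0.055 to 0.57, limma adjusted p = 0.999), and for JARID2 -0.15 (standard error 0.096, 95% interval -0.36 to 0.061, limma adjusted p = 0.999). RING1 followed with 0.15 (standard error 0.11, 95% interval -0.088 to 0.39, limma adjusted p = 0.999), KDM5A with -0.14 (standard error 0.12, 95% interval -0.40 to 0.12, limma adjusted p = 0.999) and HDAC3 with 0.15 (standard error 0.16, 95% interval -0.19 to 0.50, limma adjusted p = 0.999). Single libraries moved the values of KDM5A and HDAC3 most among these 6: they ran from -0.21 to -0.067 for KDM5A, nearest 0 without RBPJ knockdown replicate 1, and from -0.016 to 0.32 for HDAC3, whose sign turned without NOTCH1 knockdown replicate 1. NOTCH1 knockdown libraries lay above both of the RBPJ knockdown for 5 members (17.5% of all genes tested) and below both for 1 (15.5%). The 95% interval lay within 1.5-fold for 39 of the 40 members, SUV39H2 being the exception, against 54.3% of all genes tested and 77.0% of those averaging at least 100. The median size of the difference was 0.049 for the members, 0.12 for all genes tested and 0.097 for those averaging at least 100.

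Replicates of the members lay close together. The median difference between replicates on the log2 scale was 0.091 in the NOTCH1 knockdown, 0.11 in the RBPJ knockdown and 0.13 in the control, against 0.14, 0.14 and 0.18 for genes averaging at least 100. That background was not matched further to the level of the members, 28 of which averaged at least 1000. Replicate 1 of the RBPJ knockdown was the highest of the 6 libraries for 14 members, or 35.0%, against 12.2% of all genes tested, among them JARID2, KDM6B, EP300 and ARID1A. Replicate 1 of the control was the lowest for 14 members, or 35.0%, against 21.5% of all genes tested, among them DOT1L, KDM4B, KDM6B, ARID1A, EP300 and CREBBP. For KDM2B the lowest library was replicate 2 of the control, and for EED the highest was replicate 1 of the control.

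Chromatin genes outside the member list gave 0 calls without a replicate block. Of 131 further subunits and enzymes of the same roles, 126 were tested (limma). At an unadjusted p under 0.05 there were 3 in the NOTCH1 knockdown (7.29% of all genes tested) and 4 in the RBPJ knockdown (4.34%). The log2 fold change was above 0 for 73 of the 126 in each, against 51.1% and 49.7% of all genes tested. The smallest p in the NOTCH1 knockdown was that of EPOP, a factor that associates with PRC2 and elongin, which had 460.3 and 496 in the NOTCH1 knockdown and 333 and 488 in the RBPJ knockdown, against 249 and 364 in the control. Its log2 fold change was 0.66 (standard error 0.21, 95% interval 0.21 to 1.12, limma adjusted p = 0.488) in the NOTCH1 knockdown and 0.54 (standard error 0.18, 95% interval 0.15 to 0.94, limma adjusted p = 0.661) for both together. With a replicate block EPOP passed in the NOTCH1 knockdown (limma, adjusted p = 0.0239) and not in both together (limma, adjusted p = 0.054). JMJD1C had the smallest p in the RBPJ knockdown. This relative of the H3K9 demethylases had 272 and 239.7 in the NOTCH1 knockdown and 255 and 171 in the RBPJ knockdown, against 345 and 260.3 in the control, a log2 fold change of -0.52 (standard error 0.22, 95% interval -0.99 to -0.048, limma adjusted p = 0.983). Of 21 further PRC1 genes, 10 were above 0 and 11 below in the NOTCH1 knockdown, and their median was -0.015 on the log2 scale. Of 7 further PRC2 genes, 3 were above 0 and 4 below in the NOTCH1 knockdown, and their median was -0.033. Of these 7, EPOP and PHF19 (log2 fold change 0.41, limma adjusted p = 0.645) had an unadjusted p under 0.05 there, against 7.29% of all genes tested. In the RBPJ knockdown 1 of the 7 did (4.34%). The medians there were 0.043 for the PRC1 genes and -0.027 for the PRC2 genes.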

How the data were processed

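Polyadenylated RNA of 6 pools of bovine late morulae was measured by sequencing, 2 pools for each of 3 groups. The authors deposited one signal value per gene and library on the scale of read counts; the submitters' processing notes list Salmon 0.14.1 and DESeq2, and name ARS-UCD1.2 as genome build, without saying what each did. How the values were scaled and filtered is not given in the sources used here. The values are not whole numbers, so no count test was run, and the read depth is unknown. The 2551 of 17922 rows that carry no gene name, which hold 6.20% to 7.22% of each library, were not tested, and of rows with a repeated symbol (57) the one with the higher mean was kept. The spike-in RNAs were not used here, so total RNA per embryo was not analysed.

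Values were analysed as log2(value + 1), so fold changes of low genes are understated. Named genes averaging at least 10 (12070) were fitted with limma 3.58.1 in R 4.3.3 by group means over all 6 libraries (3 residual degrees of freedom), with variance moderated by a trend on expression level, two-sided tests and Benjamini-Hochberg adjustment over all genes. The fit was tested on simulated data. The labels do not say what the replicate number marks. Differences between replicates 2 and 1 correlated across the 12070 genes at 0.213 between NOTCH1 and RBPJ knockdown. They correlated at 0.167 between NOTCH1 knockdown and control and at 0.203 between RBPJ knockdown and control. These correlations were positive but weak, so same-numbered libraries deviated together only in part. The 40 members did not share a direction: replicate 2 was higher for 27 in the NOTCH1 knockdown, 11 in the RBPJ knockdown and 22 in the control. Any pairing thus comes from the data and not from the labels, and results of a fit with the number as a block are given beside those they change. Members, lists and alternatives were chosen with earlier results of these data known. Members called, the 6 with the smallest p in a comparison and, against control, the one with the smallest p in each role are named with standard error and adjusted p; the others are given by value. Any given so outside this rule, such as JARID2 in the RBPJ knockdown, were added after their values were seen. Transcripts of paralogues can share reads in a way the deposited values do not show. No sequences or coordinates are printed because the reference at hand holds no sequence and is of another build. The fit was repeated with another pseudocount (0.1 or 10), without the filter or with a stricter one (100), after quantile or median-of-ratios scaling, on the compared groups alone, with variance moderated without the trend or robustly, at a threshold of 0.1, with the replicate number as a block, and without each library in turn. Plots were made in matplotlib 3.10.9 (Python 3.11.15).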

Additional observations from a re-analysis of the deposited data

Results flagged for a closer look

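For 3 members every library of the NOTCH1 knockdown lay on one side of the control mean and every library of the RBPJ knockdown on the other. For SMARCA4 the NOTCH1 knockdown was above and the RBPJ knockdown below, and the log2 fold change between the knockdowns was 0.21. JARID2 had the reverse arrangement only marginally, with a log2 fold change of -0.15 between the knockdowns. Its NOTCH1 knockdown replicate 1, at 3101.8, was level with the control mean of 3101.9. The NOTCH1 knockdown libraries of JARID2 overlapped with the control, at a log2 fold change of -0.0089. HDAC1 was above in the NOTCH1 knockdown and below in the RBPJ knockdown, by a log2 fold change of 0.075. The difference between the knockdowns was tested directly and did not pass for any of the 3 (limma, adjusted p = 0.999 for each).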

How the results depend on the processing

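The count of members called was 0 in each comparison under every alternative except the replicate block. With the replicate number as a block, 1 member was called in the NOTCH1 knockdown and 1 in both knockdowns together. It was KDM2B both times, at log2 fold changes of 0.39 (limma, adjusted p = 0.0388) and 0.36 (limma, adjusted p = 0.0449). Over the other alternatives the adjusted p of KDM2B ran from 0.327 to 0.999 and from 0.308 to 0.981. Among related genes the block called EPOP in the NOTCH1 knockdown (log2 fold change 0.66, limma adjusted p = 0.0239), and it changed no other call among members and related genes. The block raised the calls over all genes as well, to 89 higher and 49 lower in the NOTCH1 knockdown (0 without it), 8 higher and 4 lower in the RBPJ knockdown (1), 39 higher and 20 lower in both together (0) and 4 higher and 11 lower between the knockdowns (1). The members' median log2 fold change in the NOTCH1 knockdown was -0.025 after quantile normalization, against 0.014 as deposited. Over omitted libraries the medians ran from 0.00020 to 0.041 in the NOTCH1 knockdown, -0.014 (without RBPJ knockdown replicate 1) to 0.049 in the RBPJ knockdown, -0.0028 to 0.025 in both together and -0.040 to 0.029 between the knockdowns. Omitting one library turned the sign of many small differences (21, 21, 17 and 29 of the 40 members in the 4 comparisons), among them 4 that were named for a small p, whose ranges were -0.0092 to 0.24 for EP300 and -0.011 to 0.22 for CARM1 in the NOTCH1 knockdown, -0.0072 to 0.43 for DOT1L in the RBPJ knockdown and -0.016 to 0.32 for HDAC3 between the knockdowns. Without the trend in the variance moderation RBPJ itself was not called in its knockdown, where 0 genes passed (limma, 535 at an unadjusted p under 0.05). With 2 libraries a group, the members of lowest level, SUV39H2 and EZH1, had the widest intervals.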
